A study of Mus musculus with 2 samples.

Results

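The dendritic cells of a mouse breast tumour are described here from 57 barcodes, 0.524% of the 10881 barcodes of 1 treated tumour library that passed limits on depth and quality (95% exact binomial interval 0.397 to 0.678%, counting error only). The limits were 300 genes or more, fewer than 20000 UMIs and a mitochondrial share below 10%. Members were chosen by their counts of Flt3, Zbtb46, Xcr1, Clec9a, Cd209a and Ccl22, which together had to reach 3 UMIs. A UMI is a molecular tag that stands for 1 captured RNA molecule. Barcodes were kept out when C1qa, C1qb and C1qc, genes of macrophages, reached 0.1% of UMIs, when the granulocyte genes S100a8, S100a9, Csf3r and G0s2 reached 2%, or when T cell, endothelial, epithelial and B cell genes (Cd3e, Cd3g, Cdh5, Cldn5, Krt8, Krt18, Cd79a) exceeded 1 UMI. The values of these 6 markers and of the excluding genes are therefore given as a description only. Of the 57 members, 43 were in the list of cells that the authors kept, and 14 were left out of it although they lay inside the same limits.

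The tumours were subcutaneous 4T1 breast cancers, grown from a mouse mammary carcinoma cell line, in mice of the WT genotype. Single-cell RNA was measured with 10x 3′ v3 chemistry in 1 library from the treated group (treatment labelled PCN, in a series titled for PATCH treatment) and 1 from the control group (PBS). The matrix analysed here was the treated library: all 10835 barcodes listed for it were present, against 37 of the 11643 listed for the control, 33 of which were also listed for the treated library and none of which was a member. Control counts were not analysed here, so the treated tumour was not compared with the PBS tumour, and with 1 library there is no replicate spread behind any value. Intervals and ratios compare sets of barcodes inside this library and cover counting error only.

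Dendritic cells take up antigen in tissues and show its peptides to T cells on MHC class I and class II molecules, together with costimulatory ligands. Conventional type 1 cells (cDC1) carry XCR1 and the dead-cell receptor CLEC9A, depend on the transcription factors IRF8 and BATF3, and are known for cross-presenting tumour antigen to CD8 T cells. Conventional type 2 cells (cDC2) carry lectins such as CD209a and MGL2, use IRF4 and KLF4, and are best known for priming CD4 T cells. After activation or uptake of cell debris, cells of both types can switch on CCR7, the receptor that guides them to lymph nodes, with the actin-bundling protein fascin (Fscn1), the chemokine CCL22 and checkpoint ligands.

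Members were deep barcodes, with a median of 7782 UMIs (2983 to 18984) and 2577 genes, beside a median of 3545 UMIs in the 10824 other barcodes inside the limits. The rule asks for 3 marker UMIs at any depth, which deep barcodes reach more easily, and its part in this difference was not tested. The sum of the 6 markers was exactly 3 in 11 members and 4 in 4, while 34 further barcodes inside the limits had 2 marker UMIs and 121 had 1. MHC class II, here H2-Aa, H2-Ab1, H2-Eb1 and Cd74 pooled, was 1.96% of UMIs in the members with a sum of 3, 2.62% in those with 4 and 0.790% in the barcodes with 2. Of 69 barcodes with 3 or more marker UMIs, 12 failed an exclusion, 9 by other-lineage genes and 3 by C1q. Ptprc, the pan-leukocyte gene CD45, was detected in 49 of the 57, and members that the authors left out were among those without it.

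The label held for most members and not for 3 of them. Those 3 entered through Zbtb46 alone, with 5, 3 and 3 UMIs, and had 186, 986 and 723 UMIs of the collagens Col1a1, Col1a2 and Col3a1 (1.26, 5.19 and 5.51% of their UMIs). They had 0, 1 and 0 UMIs of the 4 MHC class II genes, 0, 1 and 0 of Ptprc and none of Flt3. They are called collagen-high members below, not dendritic cells. They stay in all values given for the members as a whole, and some of these are also given without them. A further pair of members, both left out by the authors and the only 2 members among the top 5% of doublet scores, carried 7 and 8 UMIs of Siglech, a lectin of plasmacytoid dendritic cells, and MHC class II of 0.689 and 0.707%. One kept member with 2983 UMIs that met more than 1 subset definition had MHC class II of only 0.101%.

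The members divided by the receptors and chemokines they carried. Xcr1 or Clec9a alone marked 17 members, Cd209a alone 18, and Ccr7 together with Ccl22 alone 14. Another 5 met more than 1 of these definitions, and the 3 collagen-high members met none. In the first subset Clec9a ran from 1 to 7 UMIs, and Xcr1 was detected in 10 of the 17 with up to 14 UMIs. Cd209a ran from 1 to 16 UMIs in its subset, and Ccr7 from 2 to 30 in the Ccr7 with Ccl22 subset.

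**Figure D1:**
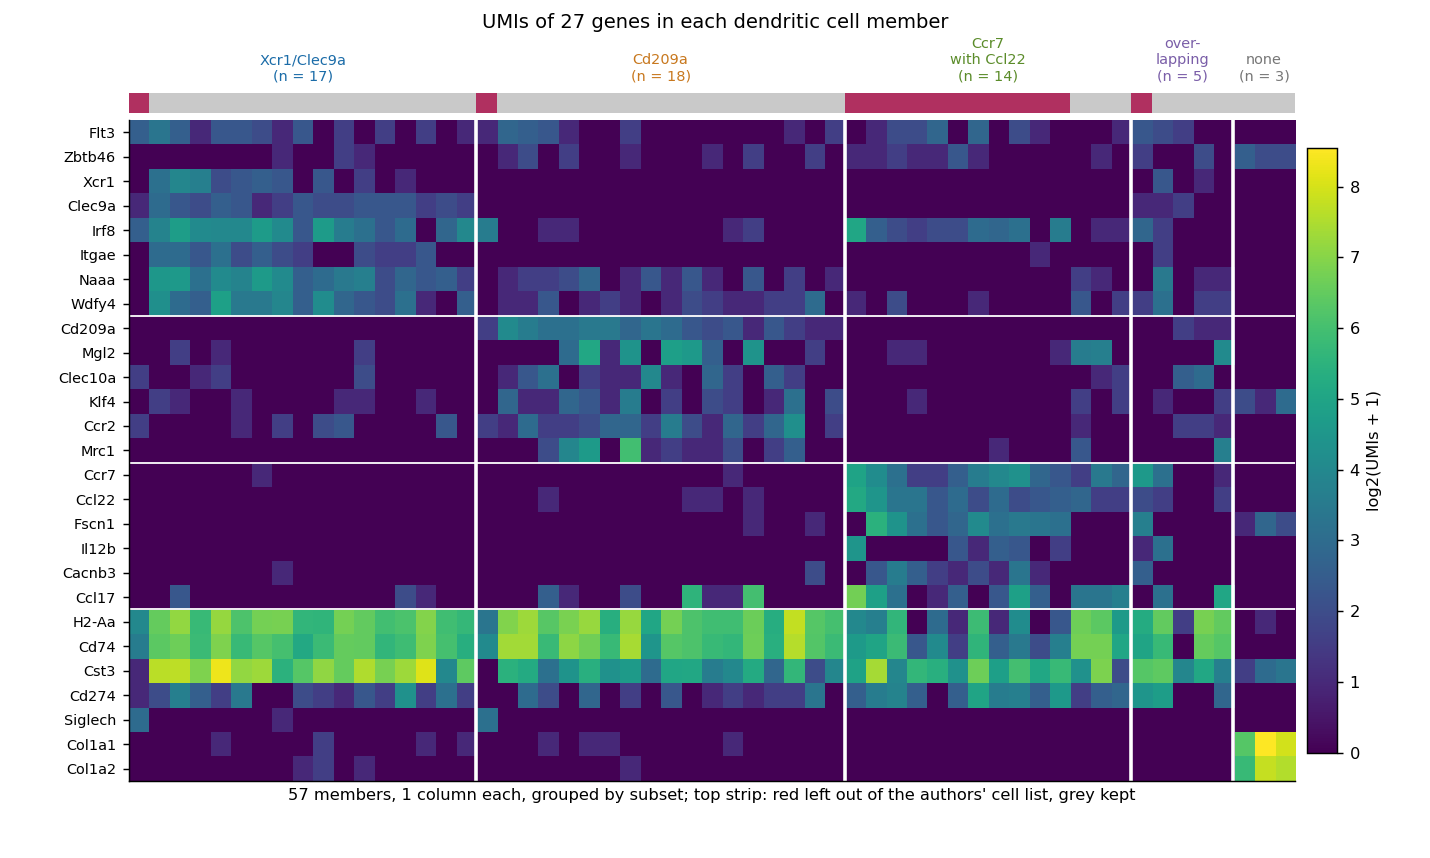
Each column is 1 of the 57 members, each row 1 of 27 genes, and the colour is log2(UMIs + 1); the strip on top is red for members left out of the authors' cell list and grey for kept ones. Itgae and Naaa lie mostly in the Xcr1/Clec9a columns, Mgl2 and Ccr2 mostly in the Cd209a columns, Fscn1 mostly in the red Ccr7 columns, and the collagen rows are high in the last 3 columns.

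Left-out barcodes were concentrated in the Ccr7 with Ccl22 subset. Of its 14 members, 11 had been left out by the authors (78.6%, exact binomial interval 49.2 to 95.3%), against 1 of 17 in the Xcr1/Clec9a subset, 1 of 18 in the Cd209a subset, 1 of 5 among the overlapping members and 0 of 3 collagen-high members. The left-out members of the Xcr1/Clec9a and Cd209a subsets were the Siglech pair named above, with 7 and 8 Siglech UMIs. With overlapping members counted in each definition they meet, 12 of 17 Ccr7 with Ccl22 members were left out (70.6%, 44.0 to 89.7%). Among all 57 members the share left out was 24.6% (14.1 to 37.8%), beside 32 of the 10824 other barcodes (0.296%, 0.202 to 0.417%). Members were 14 of the 46 barcodes inside the limits that the authors left out (30.4%, 17.7 to 45.8%).

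The promoters of 4 genes that mark the subsets are shown because Cd209a and its neighbouring family member Cd209d were both detected in the Cd209a subset, and outside it Cd209d had a UMI in only 1 member, an overlapping one. Sequences are RefSeq windows from 250 bases before to 50 after the annotated start, on build GRCm38.p6, written 5′ to 3′ on the gene's strand, with chr8:3748935-3749234 (minus strand), chr8:3878450-3878749 (minus), chr9:123861980-123862279 (minus) and chr8:94745434-94745733 (plus). Capitals mark a composite PU.1-IRF motif, GGAA and GAAA separated by 2 bases of any kind, searched on both strands, which appears here as its reverse complement.
Cd209a: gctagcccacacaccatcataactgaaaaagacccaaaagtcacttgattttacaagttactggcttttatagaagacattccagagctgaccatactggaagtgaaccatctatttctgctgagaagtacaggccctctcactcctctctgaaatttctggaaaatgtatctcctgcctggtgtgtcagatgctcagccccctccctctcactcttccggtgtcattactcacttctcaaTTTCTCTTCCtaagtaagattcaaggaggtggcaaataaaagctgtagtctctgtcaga
Cd209d: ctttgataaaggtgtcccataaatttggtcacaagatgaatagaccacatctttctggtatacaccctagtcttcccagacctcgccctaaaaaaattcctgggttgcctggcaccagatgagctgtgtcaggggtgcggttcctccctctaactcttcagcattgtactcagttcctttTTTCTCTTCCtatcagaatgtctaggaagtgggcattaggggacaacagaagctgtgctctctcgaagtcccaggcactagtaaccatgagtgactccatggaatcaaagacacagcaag
Xcr1: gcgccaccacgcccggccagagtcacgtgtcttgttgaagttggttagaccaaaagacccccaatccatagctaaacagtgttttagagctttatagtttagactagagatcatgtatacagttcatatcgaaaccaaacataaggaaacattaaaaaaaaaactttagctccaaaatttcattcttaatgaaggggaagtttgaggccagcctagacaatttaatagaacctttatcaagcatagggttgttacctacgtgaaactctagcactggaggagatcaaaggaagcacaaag
Ccl22: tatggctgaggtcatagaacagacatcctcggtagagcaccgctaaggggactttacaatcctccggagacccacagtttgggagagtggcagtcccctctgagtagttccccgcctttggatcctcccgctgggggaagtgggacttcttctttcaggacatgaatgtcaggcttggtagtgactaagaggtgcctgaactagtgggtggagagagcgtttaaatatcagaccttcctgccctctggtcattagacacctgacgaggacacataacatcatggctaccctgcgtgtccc
The motif began at base -9 from the start in Cd209a and at base -70 in Cd209d. It was not found in the windows of Xcr1, Clec9a, Ccl22, Ccl17, Fscn1 or Il12b, and 892 of 32851 RefSeq mouse promoter windows held it (2.72%). A strict form of the kappaB motif, GGG and TTTCC separated by 2 bases of any kind, was in none of these 8 windows and in 535 of all windows (1.63%). Looser forms of the kappaB motif were not searched, so its absence from these windows is not shown. These matches describe letters in the windows and no binding.

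Against the 10824 other barcodes of the tumour, members stood out by antigen presentation on MHC class II. Their 4 main class II genes made up 2.20% of all UMIs, beside 0.134% in the other barcodes. H2-Aa, the class II alpha chain, was at 7564 CPM (UMIs per 1000000 UMIs of a set) in members and 392 CPM in the other barcodes, a ratio of 19.3 (18.6 to 19.97), where brackets give the 95% counting interval. H2-Ab1 was 19.5-fold (95% interval 18.5 to 20.6) higher and H2-Eb1 20.3-fold (95% interval 19.4 to 21.2) higher. Cd74, the invariant chain that guides class II molecules to the endosome, was at 7043 CPM in members, against 577 CPM, and Ciita, the class II master regulator, at 75.4 CPM, against 4.19 CPM. Without the collagen-high members, the log2 ratios were 4.41 for H2-Aa, 4.43 for H2-Ab1, 4.49 for H2-Eb1 and 3.76 for Cd74. Of the 14 measured class II genes 12 were at least 2-fold higher and none lower; Ctss, the protease that trims the invariant chain, was at a ratio of 0.621 (0.559 to 0.688). Over the 16481 genes with 20 or more UMIs, 20.4% were at least 2-fold higher in members and 14.1% at least 2-fold lower, with a median log2 ratio of 0.12. The median log2 ratio of the class II list was 3.80.

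Further dendritic cell genes outside the 6 markers went the same way. Of the 16 pan-dendritic genes that the rule did not use, 13 were at least 2-fold higher and none lower (median log2 ratio 3.39). They included Cst3, the protease inhibitor cystatin C, at 7521 CPM in members and 832 CPM in the other barcodes. Itgax, the integrin chain CD11c, was 6.44-fold (95% interval 4.68 to 8.67) higher, Kit 26.8-fold (95% interval 20.3 to 35.1) higher and Dpp4 20.3-fold (95% interval 15.5 to 26.1) higher. Among genes with 50 or more UMIs that the rule did not use, among the highest ratios were those of Septin3, a septin, at 198 (126 to 315), and Ccl17, the CCR4 ligand made by dendritic cells, at 194 (165 to 229). Hepacam2, the phosphatidylserine receptor gene Timd4 and the dendritic cell repressor gene Zfp366 were also high, at 143 (85.9 to 239), 99.9 (70.9 to 140.4) and 66.96 (46.3 to 95.9). Ccr7 was at 348 CPM in members and 5.12 CPM in the other barcodes, a log2 ratio of 6.09, and of 3.99 with the authors' list alone. Among the lowest ratios were those of Folr2, a folate receptor of macrophages, the transcription factor genes St18, Dach1 and Etv1, the attractant Prok2 and the granule gene Ltf. They had no UMI in any member, against 5149, 4936, 4180, 2969, 3376 and 2933 UMIs in the other barcodes.

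**Figure D2:**
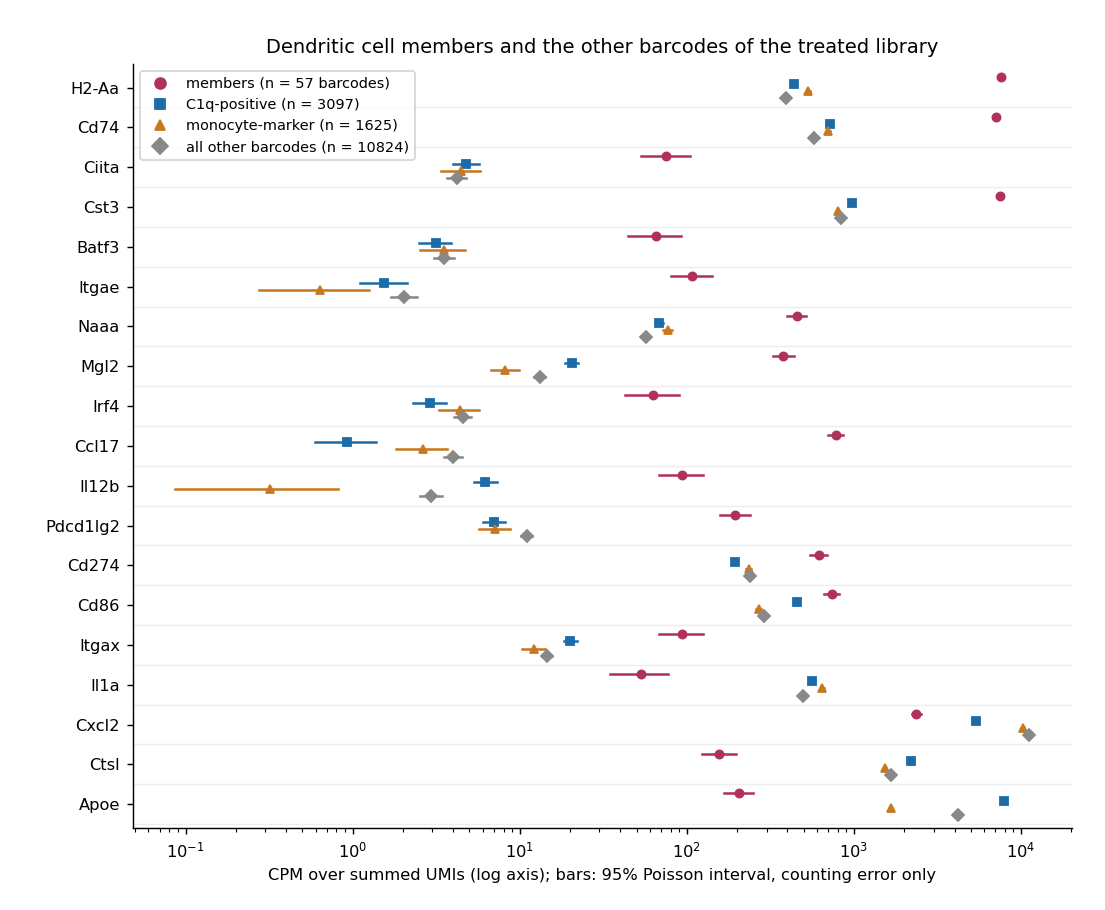
Level of 19 genes in CPM over the summed UMIs of each set, on a log axis, for the 57 members, 3097 C1q-positive barcodes, 1625 monocyte-marker barcodes and all 10824 other barcodes; bars are 95% Poisson intervals for counting error only. Members lie to the right of all 3 sets from H2-Aa down to Itgax and to the left of them for Il1a, Cxcl2, Ctsl and Apoe.

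The lists of the 3 conventional states were represented unevenly. Without rule genes, the median log2 ratio was 2.07 for the cDC1, 0.32 for the cDC2 and 1.68 for the mature list. Over all genes it was 0.12. Of the cDC1 genes other than Xcr1 and Clec9a, 15 of 20 were at least 2-fold higher than in the other barcodes and 1 lower, with Batf3 at 65.2 CPM, against 3.51 CPM, and Itgae, the integrin CD103, at 108 CPM, against 2.04 CPM. Irf8 was 3.54-fold (95% interval 3.16 to 3.96) higher. Of the cDC2 genes other than Cd209a, 9 of 22 were higher and 5 lower, with Mgl2 at 379 CPM in members, against 13.1 CPM, and Irf4 at 63.1 CPM, against 4.57 CPM. Zeb2, a cDC2 gene that monocytes and macrophages also use, was lower, at a ratio of 0.405 (0.363 to 0.450). Of the mature genes other than Ccl22, 27 of 36 were higher and 4 lower. That count rested in part on the barcodes the authors had left out: with only members and barcodes in the authors' list, 18 of 37 mature genes, Ccl22 included, were higher and 7 lower, and Fscn1 had a log2 ratio of 0.33 in place of 3.65. Over all 16445 genes tested with that list, 3750 were at least 2-fold higher and 2295 lower. The same background stands beside the later counts with the authors' list alone.

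Costimulation and checkpoint genes were more abundant in members. Of 16 genes of that list tested, 13 were at least 2-fold higher and 2 lower. Pdcd1lg2, the PD-1 ligand PD-L2, was at 196 CPM in members and 10.99 CPM in the other barcodes, a ratio of 17.8 (14.2 to 22.1), while Cd274, PD-L1, was at 615 CPM, against 238 CPM, a ratio of 2.59 (2.30 to 2.90). With every cell at equal weight the log2 ratio of Cd274 was 0.95, and with the authors' list alone 0.75, both under 2-fold; 11 of the 16 genes were then higher and 1 lower, and Cd40 was at a log2 ratio of 1.48 in place of 2.42. Cd40, the receptor for T cell help, was 5.27-fold (95% interval 3.67 to 7.36) higher, Cd80 2.77-fold (95% interval 2.39 to 3.20) higher, Cd86 2.53-fold (95% interval 2.27 to 2.81) higher, and Tnfsf4, the OX40 ligand, had 9 UMIs in members and 33 in all other barcodes. The TIM-3 ligand gene Lgals9 and the checkpoint gene Vsir were lower, at ratios of 0.324 (0.161 to 0.580) and 0.453 (0.284 to 0.686), Vsir with a log2 ratio of -0.95 with the authors' list alone.

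Most chemokines and 8 of 17 cytokines were lower in members than in the other barcodes, of which 3291 carried granulocyte genes and 3097 C1q genes. The cytokine that was at least 2-fold higher was Il12b, the p40 chain of IL-12 and IL-23, at 93.7 CPM in members and 2.96 CPM in the other barcodes. With the authors' list alone its log2 ratio was 2.91 in place of 4.99. Il10 had 1 UMI in members and 6266 in the other barcodes, and Il1a was at a ratio of 0.107 (0.0699 to 0.157). Of 18 chemokines tested 2 were higher, Ccl17 and, at a ratio of 2.67 (1.97 to 3.54), the T cell attractant Ccl5, and 11 were lower. With the authors' list alone the log2 ratio of Ccl5 was 0.47 in place of 1.43, and 1 of the 18 was higher. The neutrophil attractants Cxcl2 and Cxcl3 were at ratios of 0.212 (0.200 to 0.225) and 0.0692 (0.0496 to 0.0939), and the monocyte attractant Ccl8 at 0.0949 (0.0614 to 0.140). Granulocyte genes, limited by the rule, reached 1.49% of UMIs in 1 member, of the Xcr1/Clec9a subset, and were under that in the other 56.

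Of 31 transcription factors 15 were at least 2-fold higher and 5 lower, beside 20.4% and 14.1% of all 16481 genes tested. The numbers of higher pattern recognition and lysosomal genes given below were near that share over all genes. The NF-kappaB subunit genes Rel and Relb were 3.78-fold (95% interval 3.44 to 4.15) and 3.07-fold (95% interval 2.51 to 3.73) higher, and Stat4 9.69-fold (95% interval 7.58 to 12.2) higher, while the macrophage factor Maf was at a ratio of 0.112 (0.0610 to 0.187) and Cebpb at 0.199 (0.177 to 0.223). With the authors' list alone 13 of the 31 were higher, and the log2 ratios were 0.65 for Relb in place of 1.63 and 1.92 for Stat4 in place of 3.29. Among 26 pattern recognition genes 5 were higher and 8 lower; the double-stranded RNA sensor Tlr3 was 4.93-fold (95% interval 2.79 to 8.11) higher and the endotoxin receptor Tlr4 was at a ratio of 0.0595 (0.0193 to 0.139). The lysosomal proteases Ctsl and Ctsd were at ratios of 0.0942 (0.0744 to 0.118) and 0.106 (0.0854 to 0.131), and of 17 lysosomal and processing genes 3 were higher and 7 lower. The immunoproteasome gene Psmb8 was 2.66-fold (95% interval 2.25 to 3.14) higher and Wdfy4, which cross-presentation needs in cDC1, 6.66-fold (95% interval 5.74 to 7.70) higher, among 8 of 22 class I and cross-presentation genes that were higher, with 1 lower. Of 20 migration and cytoskeleton genes 9 were higher and none lower, with Itga4 at 7.13-fold (95% interval 6.22 to 8.13) higher. None of 17 glycolysis and hypoxia genes was higher and 7 were lower, and of 24 type I interferon response genes 3 were higher and 8 lower.

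Marker lists of other cell types were counted in the same comparison, in which 20.4% of all genes tested were at least 2-fold higher and 14.1% lower. All 16 macrophage genes, including the 3 C1q genes that the rule limits, were at least 2-fold lower in members. Of 12 neutrophil genes, among them genes that the rule limits, 11 were lower, and 5 of 10 monocyte genes were lower with none higher. Per member, the 16 macrophage genes together took 0 to 0.685% of UMIs. Of 10 T cell genes 2 were higher and 6 lower, of 8 NK cell genes 2 and 5, of 8 B cell genes 2 and 3, of 7 endothelial genes 0 and 5, and of 8 epithelial tumour genes 1 and 6. Of 7 mast cell and basophil genes 1 was higher and 3 lower, of 6 osteoclast genes 0 and 5, and of 4 Langerhans genes 2 and 2. Of 8 fibroblast genes 1 was higher and 1 lower, and without the 3 collagen-high members all 8 were lower; the class II list then had 13 of 14 genes higher and the mature list 30 of 37. Of 10 plasmacytoid genes 7 were higher and none lower, and with only the authors' list 3 of 7 tested. Of the 16 Siglech UMIs in members, 15 came from the pair named above.

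Macrophages and monocytes share many genes with dendritic cells, and members were also set against barcodes with C1q genes and against barcodes with monocyte markers. The 3097 C1q-positive barcodes had a median of 7879 UMIs and the 1625 monocyte-marker barcodes (3 or more UMIs of Ly6c2, Ccr2, Vcan and F13a1, and C1q under 0.1%) had 6704. MHC class II was 2.20% of UMIs in members, 0.156% in C1q-positive and 0.174% in monocyte-marker barcodes. Against C1q-positive barcodes 18.5% of 13248 genes were at least 2-fold higher and 14.2% lower. H2-Aa was at a ratio of 17.3 (16.7 to 18.003), Pdcd1lg2 at 27.7 (21.4 to 35.7) and Cd274 at 3.19 (2.83 to 3.58). Ccl17 had 381 UMIs in members and 24 in all C1q-positive barcodes, and Septin3 53 and 1. Apoe, a lipid carrier of macrophages, was at 206 CPM in members and 7959 CPM in C1q-positive barcodes, and Ms4a7 had 2 UMIs in members and 9247 there. Of 11 class II genes 8 were higher and 1 lower, and of 15 costimulation and checkpoint ligands 11 were higher and 2 lower. All 16 macrophage genes were lower, the C1q genes that chose the sets included.

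Against monocyte-marker barcodes 13.5% of 12528 genes were at least 2-fold higher in members and 16.3% lower. The monocyte-marker set also held fibroblast genes: the 8 fibroblast genes summed to 4434 CPM in members, against 9372 CPM in monocyte-marker and 286 CPM in C1q-positive barcodes, and the 10 monocyte genes to 1766 CPM in members, against 6318 CPM in monocyte-marker barcodes. Of the 2177 fibroblast gene UMIs in members, only 48 remained without the collagen-high members, 0.0108% of the UMIs of the remaining members. Of the 1625 monocyte-marker barcodes, 183 had collagen at 1% of UMIs or more. Of the 8 fibroblast genes 5 were at least 2-fold lower in members and none higher. H2-Aa was at a ratio of 14.2 (13.6 to 14.7) and Ccl17 at 295 (207 to 435), and without the barcodes of both sets that had collagen at 1% or more, the log2 ratio of H2-Aa was 3.68 in place of 3.82. Il12b had 46 UMIs in the 57 members, 21 of them in 1 member, and 4 in the 1625 monocyte-marker barcodes. Btla, an inhibitory receptor of cDC1, had 80 UMIs, against 10, and Plet1, a surface protein of some dendritic cells, 222, against 30. Nos2, inducible nitric oxide synthase, had no UMI in members and 526 in monocyte-marker barcodes. Ccr2, the monocyte chemokine receptor, was at 208 CPM in members and 375 CPM in monocyte-marker barcodes, a ratio of 0.554 (0.450 to 0.673), and Ccr2 was used to choose the monocyte-marker barcodes. Of 16 macrophage genes 11 were lower and none higher, and of 12 class II genes 11 were higher.

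Shares of cells with a UMI were compared after every barcode had been thinned to 1000 UMIs. All 57 members were deep enough, and 2868 of 3291 granulocyte-marker barcodes (median 1725 UMIs before thinning, members 7782) served as the background, since granulocytes are known to lack most dendritic cell genes. H2-Aa was detected in 84.2% of members (exact interval 72.1 to 92.5%; 92.98% unthinned), against 2.58% of granulocyte-marker barcodes (5.07% unthinned). Irf8 was detected in 43.9% (30.7 to 57.6%; 61.4% unthinned), against 1.32%, and Ccr7 in 21.1% (11.4 to 33.9%; 33.3% unthinned), against 0.0349%. Flt3 was detected in 15.8% of thinned and 56.1% of unthinned members and in 0 of 2868 thinned granulocyte-marker barcodes, which allows a share of up to 0.105% by 3 counts of the total (exact upper limit 0.129%). Cd274 was detected in 33.3% of members and 31.8% of granulocyte-marker barcodes, and granulocytes are known to express it. Thinned in the same way, Irf8 was detected in 82.4% of the Xcr1/Clec9a, 11.1% of the Cd209a and 57.1% of the Ccr7 with Ccl22 subset. Fscn1 was detected in 64.3% of the Ccr7 with Ccl22 subset, against 0 of 17 Xcr1/Clec9a members, which allows a share of up to 17.6% (exact upper limit 19.5%), 0 of 18 Cd209a members, which allows up to 16.7% (18.5%), and 0.244% of granulocyte-marker barcodes. H2-Aa was detected in 57.1% of the Ccr7 with Ccl22 subset and in every member of the other subsets.

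The Xcr1/Clec9a subset was high in cDC1 genes. Set against the 32 members of the Cd209a and Ccr7 with Ccl22 subsets, 16 of 17 cDC1 genes other than Xcr1 and Clec9a were at least 2-fold higher and 1 lower (median log2 ratio 2.67), where 13.2% of 5361 genes with 10 or more UMIs were higher and 17.0% lower (median -0.05). Irf8, the factor that specifies cDC1, was at 1458 CPM in this subset, 95.9 CPM in the Cd209a subset and 849 CPM in the Ccr7 with Ccl22 subset. By member, Irf8 ran from 0 to 26 UMIs with a median of 13 in the Xcr1/Clec9a subset, and was 0 in 13 of 18 Cd209a members. In the Ccr7 with Ccl22 subset 1 member alone had 32 Irf8 UMIs. Batf3 was at 131 CPM, against 11.99 CPM in Cd209a and 93.1 CPM in Ccr7 with Ccl22 members.

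Of 20 class I and cross-presentation genes 5 were at least 2-fold higher in this subset and 1 lower (median log2 ratio 0.12), and of 17 lysosomal and processing genes 4 were higher and 5 lower (median -0.43). Wdfy4 was at 974 CPM in the Xcr1/Clec9a subset, against 174 CPM in the Cd209a and 114 CPM in the Ccr7 with Ccl22 subset, a ratio of 6.42 (4.49 to 9.36) over the others. Naaa, a lysosomal amidase, was at a ratio of 9.16 (6.34 to 13.6), Ppt1, a lysosomal thioesterase, at 11.4 (6.003 to 23.9), and Btla at 8.54 (4.64 to 16.95). Itgae had 50 UMIs in 12 of the 17 members and 1 UMI in the 32 others. Tlr3 had 16 UMIs in 9 members and none in the others, at least 9.71-fold higher when the others are set to a floor of 3 counts over the whole set. Tap1, which loads peptides onto class I, was at a ratio of 3.06 (1.76 to 5.45). Cst3 was at 16068 CPM, against 2386 CPM in the Cd209a and 7555 CPM in the Ccr7 with Ccl22 subset. The 1 cDC1 gene that was lower was Ly75, the endocytic receptor DEC-205, at 76.02 CPM, against none in the Cd209a and 528 CPM in the Ccr7 with Ccl22 subset.

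**Figure D3:**
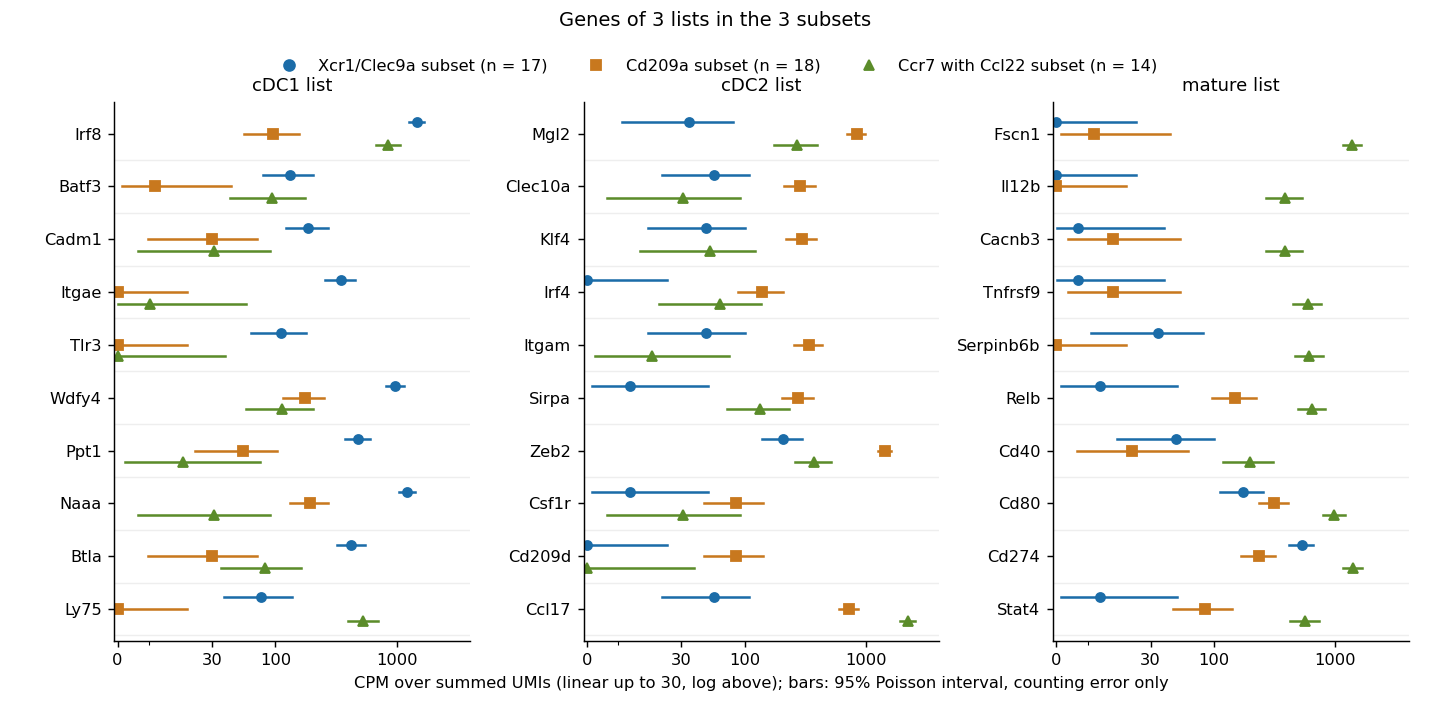
Level in CPM of 10 genes from each of the cDC1, cDC2 and mature lists, over the summed UMIs of the Xcr1/Clec9a (17 members), Cd209a (18) and Ccr7 with Ccl22 (14) subsets, on an axis that is linear up to 30 and logarithmic above; bars are 95% Poisson intervals for counting error only. Each list is highest in 1 subset, with the exceptions of Ly75 and Ccl17, which are highest in the Ccr7 with Ccl22 subset.

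Outside the lists, the highest ratios in the Xcr1/Clec9a subset were those of P3h2, a collagen prolyl hydroxylase (38 UMIs in 10 members, at least 23.1-fold higher), Nlgn1, a synaptic adhesion gene (26 UMIs, but in only 3 members), and Ank1, an ankyrin (23 UMIs in 8 members). Ly6a had 59 UMIs in only 2 members. The other programmes were low: 16 of 18 cDC2 genes other than Cd209a were at least 2-fold lower and none higher, and 22 of 28 mature genes other than Ccr7 and Ccl22 were lower and 1 higher, Pdcd1lg2, at a ratio of 2.18 (1.41 to 3.41). Mrc1 and Fscn1 had no UMI in the subset. Of 12 interferon response genes 6 were higher and none lower, and of 16 chemokines 13 were lower and 1 higher. That 1 was Cxcl9, the CXCR3 ligand, whose 23 UMIs came from 2 of 17 members. Of 8 neutrophil genes 4 were also higher here, and none of 6 tested was without the member that had granulocyte genes at 1.49%.

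The Cd209a subset carried cDC2 genes together with genes shared with monocytes and macrophages. Of the 18 cDC2 genes other than Cd209a, 12 were at least 2-fold higher than in the other subsets and none lower, where 14.3% of the 5361 genes were higher and 14.2% lower (median 0.03, list median 2.02). Mgl2, a galactose-binding lectin of cDC2 and macrophages, was at 833 CPM, against 34.6 CPM in the Xcr1/Clec9a and 269 CPM in the Ccr7 with Ccl22 subset. It was uneven, with 9 of 18 members positive and up to 34 UMIs in 1. Clec10a was at a ratio of 6.31 (3.23 to 13.5) and the transcription factor gene Klf4 at 5.91 (3.10 to 12.2). Irf4, the factor of cDC2, had 23 UMIs in 9 members, against none in the Xcr1/Clec9a subset and 6 in the Ccr7 with Ccl22 subset. Cd209d, the family member whose promoter is shown above, had 14 UMIs in 5 of 18 members and none in the other subsets, at least 6.75-fold higher.

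Further genes of the cDC2 list were higher in the Cd209a subset. Sirpa, the receptor for CD47, was at 276 CPM, against 13.8 CPM in the Xcr1/Clec9a and 135 CPM in the Ccr7 with Ccl22 subset. Itgam, the integrin CD11b, was at a ratio of 9.002 (4.42 to 20.7), Zeb2 at 5.20 (3.94 to 6.93) and Csf1r, the M-CSF receptor, at 4.05 (1.38 to 14.4). Ccr2 was at 479.6 CPM, against 111 CPM in the Xcr1/Clec9a and 10.3 CPM in the Ccr7 with Ccl22 subset, and was detected in 17 of 18 members. Of 12 macrophage genes 9 were higher and none lower, and of 9 monocyte genes 6 were higher and none lower. Mrc1, the mannose receptor, had 117 UMIs in 11 members, against 5 UMIs in the others, and Arg1 27 UMIs in 5 members, against 1. Single members held 61, 24 and 14 of the 117 Mrc1 UMIs. C1q was held under 0.1% by the rule, and no other part of the rule separates cDC2 from monocyte-derived cells that carry Cd209a; which of them these members are cannot be told apart from these counts. Ccl2, the CCR2 ligand, was at a ratio of 16.4 (8.31 to 36.9), Cd44 at 8.81 (6.41 to 12.4) and Osm, oncostatin M, at 6.03 (3.83 to 9.84), and 10 of 16 chemokines were higher and 3 lower.

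A few members decided some of these values. Cell cycle genes were higher for 8 of 9 tested, but without the 3 members with 83, 58 and 58 cell cycle UMIs only 4 were tested, 1 higher and 1 lower; Top2a, a replication and mitosis gene, had 21 UMIs in 4 members. Cyp7b1, an oxysterol hydroxylase, had the highest log2 ratio in the comparison, and its 148 UMIs came from 3 of 18 members. The cDC1 and mature lists were low, with 13 of 17 and 21 of 28 genes outside the definitions at least 2-fold lower and none higher. Irf8 was at a ratio of 0.0790 (0.0446 to 0.130); 11 of its 16 UMIs came from the left-out Siglech member, and without the members of highest doublet score, that one among them, its log2 ratio was -5.17 in place of -3.62.

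The Ccr7 with Ccl22 subset showed the mature programme. Of 28 mature genes other than Ccr7 and Ccl22, 26 were at least 2-fold higher than in the other subsets and none lower (median log2 ratio 3.20), where 13.1% of the 5361 genes were higher and 20.7% lower (median -0.10). Fscn1 was at 1366 CPM, with 132 UMIs in 10 of 14 members, against 2 UMIs in the 35 others. Il12b had 37 UMIs in 6 members and none in the others, at least 39.8-fold higher, and 21 of the 37 came from 1 left-out member. Cacnb3, a calcium channel subunit of migratory dendritic cells, was at a ratio of 29.8 (10.7 to 115), and Socs2, a cytokine signalling inhibitor, at 20.4 (8.56 to 59.1). Relb, the NF-kappaB subunit of dendritic cell maturation, was at 642 CPM, against 13.8 CPM in the Xcr1/Clec9a and 149.9 CPM in the Cd209a subset, and Nfkb1 was at a ratio of 2.36 (1.98 to 2.81).

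Of 13 costimulation and checkpoint genes 5 were at least 2-fold higher and 2 lower (median log2 ratio 0.76). Cd274 was at 1387 CPM, against 525 CPM in the Xcr1/Clec9a and 234 CPM in the Cd209a subset, and by member ran from 0 to 31 UMIs with a median of 5.50. Cd200 was at a ratio of 10.5 (3.24 to 44.1), Il4i1, an amino acid oxidase that restrains T cells, at 20.4 (8.56 to 59.1), Cd40 at 5.57 (2.52 to 12.95), Cd80 at 3.94 (2.88 to 5.39) and Tnfrsf9, the receptor 4-1BB, at 45.9 (16.99 to 174). Pdcd1lg2 did not separate this subset from the cDC1 one: it was at 331 CPM, against 332 CPM in the Xcr1/Clec9a and 47.96 CPM in the Cd209a subset. Ccl17 was at 2204 CPM, against 55.3 CPM in the Xcr1/Clec9a and 719 CPM in the Cd209a subset, and 104 of its 213 UMIs came from 1 member. In the Cd209a subset single members held 63 and 46 Ccl17 UMIs. Ccl5 was at a ratio of 21.5 (9.05 to 62.02), and the retinoic acid enzyme gene Aldh1a2 had 9 UMIs in 6 members and none in the others.

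Class II genes were lower in this subset. Of 13 class II genes 8 were at least 2-fold lower and none higher (median log2 ratio -1.38). H2-Aa was at 3808 CPM, against 9586 CPM in the Xcr1/Clec9a and 9784 CPM in the Cd209a subset. H2-Eb1 was at a ratio of 0.382 (0.329 to 0.442), Cd74 at 0.533 (0.482 to 0.589) and H2-DMb1, which helps load peptides, at 0.175 (0.0858 to 0.319). The class I gene H2-K1 was at a ratio of 2.30 (1.91 to 2.76). Ccr2 had 1 UMI in the subset, and Naaa was at a ratio of 0.0465 (0.00951 to 0.138). Of 19 migration and cytoskeleton genes 8 were higher and 2 lower, of 28 transcription factors 10 were higher and 5 lower, and of 12 interferon response genes 1 was higher and 8 lower.

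**Figure D4:**
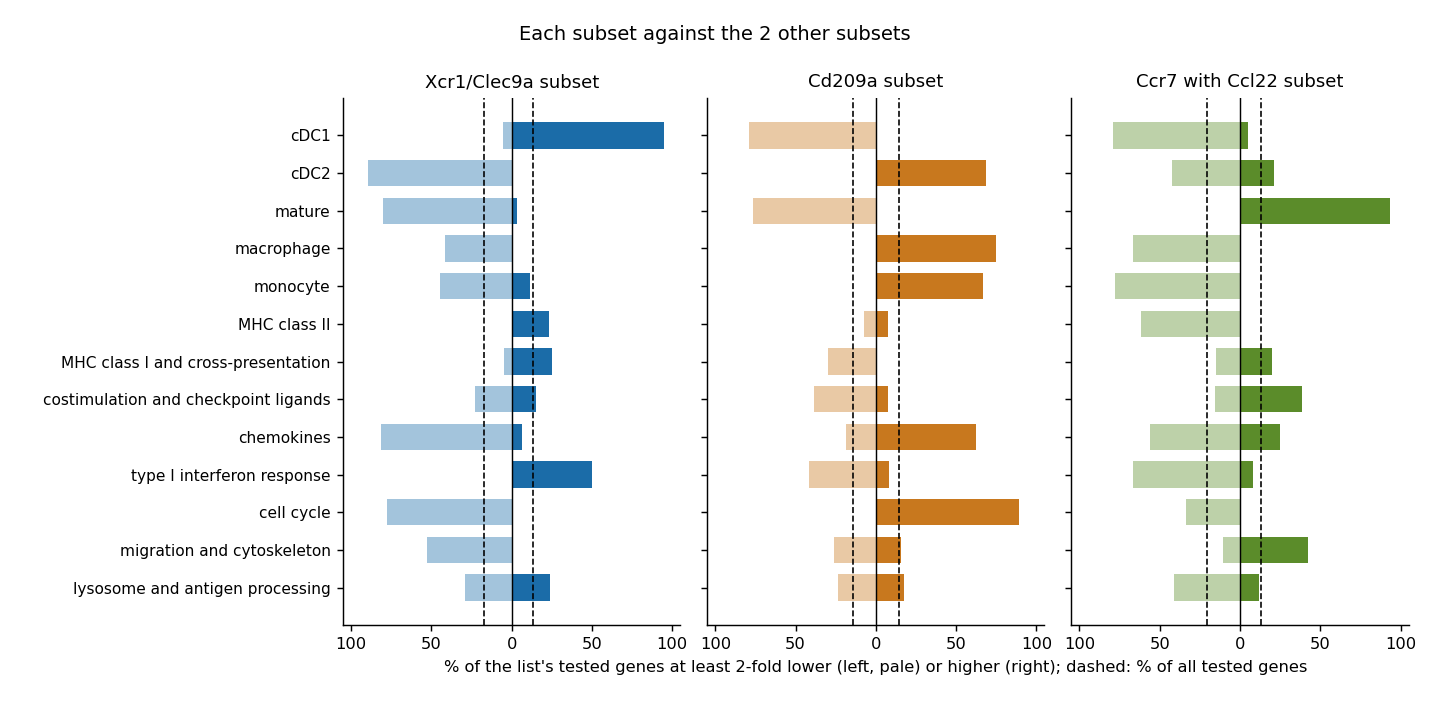
Percent of each list's tested genes that were at least 2-fold higher (dark, right) or lower (pale, left) in a subset than in the other subsets; dashed lines give the same percent over all 5361 tested genes, and the lists include their definition genes. Compared between panels, the cDC1, cDC2 and mature lists each reach furthest right in a different one. Within the Cd209a panel the cell cycle and macrophage lists reach further right than the cDC2 list. Class II reaches beyond the dashed line on the left only in the Ccr7 with Ccl22 panel.

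The kept and left-out barcodes of the Ccr7 with Ccl22 subset differed in these same genes. Among the 11 left-out members Fscn1 ran from 0 to 43 UMIs, was detected in 10, and had a median of 8; the 3 kept members had 0 each. Their Ccr7 ranged from 2 to 30 UMIs and Ccl22 from 3 to 35, against 2, 10 and 6 Ccr7 UMIs and 6, 2 and 2 Ccl22 UMIs in the kept members. MHC class II was 0.0602 to 1.73% of UMIs in the left-out members with a median of 0.491%, against 2.66, 2.96 and 2.9997% in the kept ones. Il12b was detected in 6 of the 11 left-out members and in none of the 3 kept. With the 11 left-out members alone in the subset, 10 of 12 class II genes were lower and 29 of 30 mature genes, the definition genes included, higher. With the whole subset, 13.1% of all 5361 genes tested were at least 2-fold higher and 20.7% lower. With kept members alone in all subsets, none of 13 class II genes was lower and 1 was higher, 10 of 19 mature genes were higher, and the log2 ratio of H2-Aa was -0.12 in place of -1.35. Over all 4650 genes tested with kept members alone, 789 were at least 2-fold higher in the subset and 1092 lower. The log2 ratio of H2-K1 was then -0.46 in place of 1.20, and that of Cd274 0.65 in place of 1.91. H2-Eb1, H2-DMb1 and Nfkb1 were also under 2-fold with kept members alone, at log2 ratios of -0.16, -0.39 and 0.37 in place of -1.38, -2.46 and 1.24. Of the 37 Cacnb3 and 13 Cd200 UMIs of the subset none came from the 3 kept members, and of the 19 Cd40 UMIs 1 did.

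Over all members, the 14 left-out barcodes were set against the 43 kept ones. Of 6099 genes 16.0% were at least 2-fold higher in left-out members and 22.4% lower (median log2 ratio -0.08). Ccr7 and Ccl22, which define the subset of 11 of the 14, are in the mature list. Of 30 mature genes 28 were higher and none lower, and of 13 class II genes 11 were lower and none higher; both counts were the same without the 3 collagen-high members, and without the Siglech pair they were 29 and 10. Fscn1 was at 1567 CPM in left-out members and 30.1 CPM in kept ones, a ratio of 52.1 (28.9 to 103), and at a log2 ratio of 7.79 without the collagen-high members, whose Fscn1 counts were 1, 6 and 3 UMIs. Mreg, a membrane transport gene, was at a ratio of 113 (29.7 to 957), Cacnb3 at 45.6 (16.5 to 175), Serpinb6b, a serpin, at 55.03 (24.1 to 155) and Cd274 at 3.91 (3.10 to 4.93). MHC class II was 0.746% of UMIs in left-out and 2.54% in kept members, 2.88% in kept members without the collagen-high ones. H2-Aa was at 2427 CPM in left-out members, against 8747 CPM in kept ones, and Naaa had no UMI in left-out members and 223 in kept ones. Among the highest ratios was that of Blnk, an adaptor of B cell and plasmacytoid cell signalling, at 45.6 (11.1 to 401), and without the Siglech pair its log2 ratio was -0.02. Among the lowest were those of Col1a1 and Thbs4, a matrix thrombospondin, which had 704 and 288 UMIs in kept members, and without the collagen-high members the log2 ratio of Thbs4 was 1.94.

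Other lists moved with the cells that were left out. Of 19 cDC1 genes 3 were higher in left-out members and 12 lower, of 19 cDC2 genes 2 were higher and 12 lower, and of 12 macrophage genes 11 were lower. The 16 macrophage genes together took 0 to 0.161% of UMIs in left-out and 0 to 0.685% in kept members. Of 6 plasmacytoid genes 5 were higher, and without the Siglech pair none of 4 tested was. Of 7 fibroblast genes all were lower, and without the collagen-high members 1 was tested and was not called. Depth was somewhat lower, with a median of 6114.5 UMIs in left-out and 8468 in kept members; its part in the result was not tested. Mitochondrial shares were alike, at a median of 2.35% in each.

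**Figure D5:**
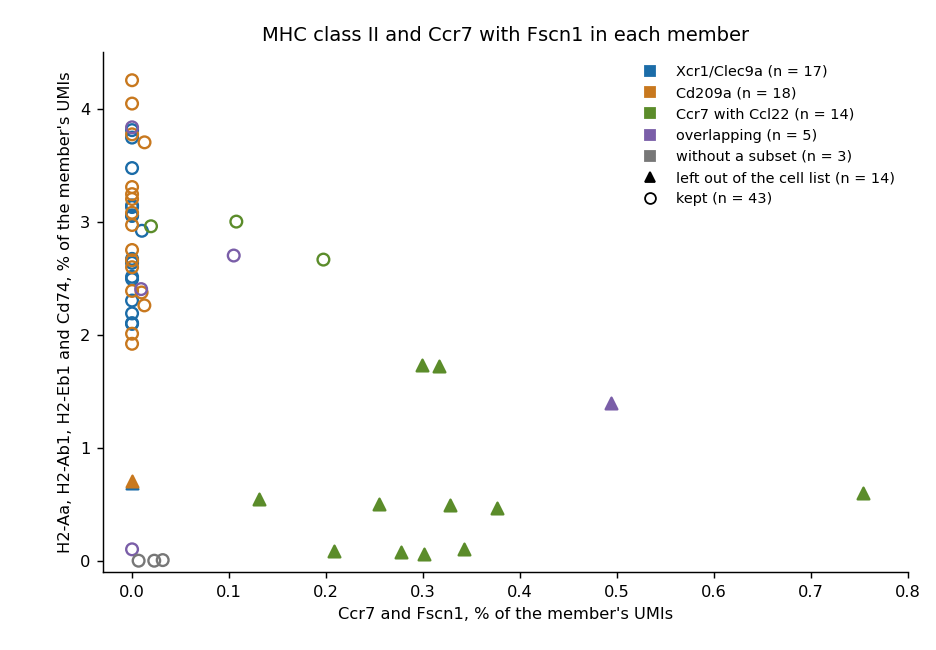
Each point is 1 of the 57 members: the x axis is the percent of its UMIs from Ccr7 and Fscn1, the y axis the percent from H2-Aa, H2-Ab1, H2-Eb1 and Cd74, colour gives the subset, and triangles are members left out of the authors' cell list. Triangles of the Ccr7 with Ccl22 subset lie at 1.73% class II or less, and the 3 kept circles of that subset between 2.66 and 2.9997%.

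The same pattern was looked for among all barcodes inside the limits. Of 17 barcodes with at least 1 UMI each of Ccr7 and Fscn1, 15 had been left out by the authors. With at least 2 UMIs of each gene and no more than 1 other-lineage UMI, all 14 had been left out, and 11 of those were members. All 10 barcodes with 2 or more Siglech UMIs had been left out too, as had 18 of 28 with 2 or more UMIs of Cpa3 and Cma1, genes of mast cells. These 3 signatures, chosen after the values were seen, covered 43 of the 46 left-out barcodes and left 3 that met none. In the authors' cell list the Ccr7 with Ccl22 subset therefore numbered 3 members in place of 14, while the Xcr1/Clec9a and Cd209a subsets numbered 16 and 17. Why these barcodes were left out is not stated in the sources used here.

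The 5 overlapping members mixed definitions. The left-out one had 23 Ccr7, 3 Ccl22 and 12 Fscn1 UMIs with 1 Clec9a UMI, and class II at 1.398%. Of the kept ones, 1 had 4 Xcr1, 1 Clec9a, 8 Ccr7, 2 Ccl22 and 8 Il12b UMIs with class II at 2.70%, so Il12b was also found outside the left-out barcodes. Another had 1 Cd209a, 1 Ccr7 and 2 Ccl22 UMIs with 16 Mgl2 and 32 Ccl17 UMIs. Flt3, the receptor on which dendritic cell development depends, was carried by 13 of 17 Xcr1/Clec9a, 8 of 18 Cd209a and 8 of 14 Ccr7 with Ccl22 members, and Zbtb46 by 3, 7 and 8 of them. Both are marker genes of the rule.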

How the data were processed

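Values were UMI counts per gene and barcode, deposited as a single 10x 3′ v3 matrix whose file header names Cell Ranger 8.0.1; Cell Ranger and STAR are named per the submitters' processing notes, and the genome build is not given in the sources used here. The barcodes kept by the authors came from their deposited cell annotation. The library of the left-out barcodes is known only from their being in the same matrix. The matrix held 12309 barcodes, 33696 genes and 96873409 UMIs.

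UMIs were summed over each set of barcodes and given as CPM, UMIs per 1000000 UMIs of the set, with exact Poisson intervals, and ratios with exact conditional intervals, at 95% (Python 3.11.15, numpy 2.4.6, scipy 1.17.1, pandas 2.3.3, scanpy 1.11.5). Cells are not replicates and 1 library was analysed, so no p-value was computed, and a gene was called at a ratio of 2-fold with at least 20 UMIs over both sets, or 10 between members. Log2 ratios had 0.5 counts added, and a set at 0 was given a floor of 3 counts over the set. PCR and capture error lie outside these intervals. Scrublet called 0 doublets among these barcodes, so its calls were not used and no doublet was removed; the top 5% of scores were left out as an alternative. Thinning to 1000 UMIs drew UMIs without replacement. The scripts were tested on simulated data.

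Of the symbols in 31 gene lists, 4 were matched by gene ID and 1 was not found. The members, subsets and lists were chosen with earlier results of these data known. Genes named against all other barcodes were up to 5 per list with the largest ratio and the highest and lowest overall with at least 50 UMIs; for subsets and for left-out members, they were cDC1, cDC2 and mature genes and the highest and lowest with at least 20 UMIs. Further genes, among them all those named against C1q-positive and monocyte-marker barcodes and the class II, class I, checkpoint, chemokine, macrophage and cell cycle genes named for subsets, were chosen after their values were seen. Alternatives covered the minimum, the fold, scaling, each limit of the rule, the authors' cell list and thinning; those without collagen-high, Siglech, granulocyte-gene or cycling members or collagen-high monocyte-marker barcodes, and some with kept or left-out members alone, were chosen after seeing the data. Promoter windows are RefSeq sequences of GRCm38.p6. The PBS library's counts were not analysed here.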

Additional observations from a re-analysis of the deposited data

Results flagged for a closer look

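Outside the limits, 13 barcodes with 20000 UMIs or more met every marker part of the rule and entered no comparison, which is a signal in data left out of the main measurement. Of these, 4 had MHC class II (H2-Aa, H2-Ab1, H2-Eb1 and Cd74) at 1% of UMIs or more and 8 had the collagens Col1a1, Col1a2 and Col3a1 at 1% or more. Pooled over the 13, class II was 0.521% and collagen 2.61% of UMIs, beside class II of 2.20% in the 57 members. Whether any of them holds more than 1 cell was not tested.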

How the results depend on the processing

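Counting all genes with at least 1 UMI, 13903 genes were past 2-fold against other barcodes in place of 5681 (83.3% of them higher in place of 59.0%), 12030 against C1q-positive barcodes in place of 4338 (84.4% in place of 56.6%) and 10003 against monocyte-marker barcodes in place of 3734 (79.5% in place of 45.2%). The same setting gave 4824 for the Xcr1/Clec9a subset in place of 1619, 6082 for the Cd209a subset in place of 1530, 4723 for the Ccr7 with Ccl22 subset in place of 1813 and 5146 for left-out against kept in place of 2343. With a minimum of 50 UMIs the counts for the 3 subsets were 365, 332 and 440 and for left-out against kept 581. At 3-fold, in the order above, the counts were 2734, 2385, 1867, 815, 715, 910 and 1313. Members numbered 91 in place of 57 at a marker sum of 2 or more. The Cd209a subset had 11 in place of 18 members at a marker sum of 5 or more, and the Ccr7 with Ccl22 subset 3 in place of 14 in the authors' cell list. Flt3 was detected in 33.3% of members thinned to 2000 UMIs and 56.1% unthinned, in place of 15.8%, and Irf8 in 61.4% unthinned, in place of 43.9%. Of 1442 gene values under alternatives, 1246 were the same, 191 moved and 5 reversed. The reversed log2 ratios were those of Blnk in left-out members (-0.02 without the highest doublet scores or without the Siglech pair, which remove the same 2 members), Thbs4 (1.94 without collagen-high members), and H2-Ab1 and H2-K1 in the Ccr7 with Ccl22 subset (0.03 and -0.46 with kept members alone). Weighting cells equally moved the median log2 ratio of all genes against other barcodes to 0.27 in place of 0.12. No paired analysis was possible because 1 library was analysed. Depth limits the rare genes: in a subset of 14 members, 0 cells with a UMI allows a share of up to 21.4% by 3 counts of the total (exact upper limit 23.2%).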
